A study of Mus musculus with 10 samples.

Results

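The genes described here encode the factors that carry peptide elongation on cytosolic ribosomes (Eef1a1, Eef1a2, Eef1b2, Eef1d, Eef1g and Eef2), the kinase that acts on one of them (Eef2k) and a pair of Y-box proteins that package messenger RNA (Ybx1 and Ybx3). They were chosen by name, with earlier results of the same age comparison known, and were read by the probe sets whose array annotation gives 1 of these symbols alone. Of the 9 genes, 8 had such a probe set that passed the filter on dim probe sets, out of 8148 genes in all. These 8 were read by 12 probe sets, of which 10 passed. The probe set that lists Eef1g also lists a predicted gene, so Eef1g is not described.

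Brain total RNA of C57BL/6 mice, an inbred laboratory strain, was hybridised to Affymetrix MOE430A arrays, on which short oligonucleotides read each transcript through 1 or more probe sets. At 1 week of age there were 6 arrays, 3 for each sex label, and at 8 weeks there were 4, again divided evenly by label (2 and 2). The labels state no treatment and no altered allele in any group, and they do not say which parts of the brain were taken. Brains are numbered within each group and no label says that each number is a different animal, so the errors below describe the spread between these samples, which may be technical.

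Levels are quantile-normalized intensities, which place all arrays on one distribution, given per array or as mean ± SD over 6 arrays at 1 week and 4 at 8 weeks. Changes are log2 at 8 weeks minus 1 week ± SE from limma, with 24 added to each intensity. The overall brightness of the deposited arrays differed by up to 2.30 times and followed age. The mean intensity, with 2% trimmed at each tail, ran from 138 to 236 on 1-week arrays and from 255 to 318 on 8-week arrays. Technical and biological sources of this difference cannot be told apart here. Small changes below therefore depend on the scaling, in some genes for their sign. At 1 week the transcripts of the sex chromosomes went against the sex label on 4 of 6 arrays: Xist, the X-linked silencing RNA, gave 163 and 164 in female-labelled replicates 1 and 2, but 1664 and 1422 in male-labelled replicates 2 and 3. Replicate 3 labelled female carried both Xist (866) and the Y-linked transcript Eif2s3y (53.9). Labels therefore name arrays below, and values without the 4 opposed arrays stand beside the results. The tissue label was borne out by markers: neuronal Snap25 read 1884 or more and the astrocyte gene Gfap 607 or more on every array, while the heart muscle markers Myh6, Tnnt2, Tnni3 and Myl7 read at most 31.1.

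In each round of elongation, eEF1A brings aminoacyl-tRNA to the ribosome as a GTP-bound complex, the eEF1B subunits reload it with GTP, and eEF2 moves the ribosome along by 1 codon. Vertebrates have a pair of eEF1A genes, Eef1a1 in most cells and Eef1a2 in mature neurons and muscle. Y-box proteins carry a cold shock domain, bind messenger RNA in the cytoplasm and can hold it back from translation. They are named after the Y box, a promoter element whose core is an inverted CCAAT sequence.

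Start regions are shown for the pair of eEF1A genes, which the comparison below sets side by side, and for both Y-box genes, which were called in the same direction. Each sequence runs from 100 bases before the annotated start to base 30 of the transcript, 5′ to 3′ on the gene's strand, from RefSeq on GRCm38.p6. The windows are chr9:78481695-78481824 on the minus strand for Eef1a1, chr2:181156986-181157115 on the minus strand for Eef1a2, chr4:119294484-119294613 on the minus strand for Ybx1 and chr6:131388421-131388550 on the minus strand for Ybx3. The annotated start used for Ybx1, 119294513, lies inside its locus, which on this strand begins at 119296265. Those of Eef1a1, Eef1a2 and Ybx3 lie where their loci begin. Capitals mark matches, on either strand, to any of 4 promoter motifs. The TATA box was searched as TATAAA and, in a longer spelling of the same motif, as TATATAA. The CCAAT box was searched by the letters of its name. The GC box, a site for Sp1-type factors, was searched as GGGCGG. The E box, a site for basic helix-loop-helix factors, was searched as CACGTG.
Eef1a1: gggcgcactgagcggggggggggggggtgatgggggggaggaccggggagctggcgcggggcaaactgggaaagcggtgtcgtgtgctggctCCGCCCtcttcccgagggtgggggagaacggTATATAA
Eef1a2: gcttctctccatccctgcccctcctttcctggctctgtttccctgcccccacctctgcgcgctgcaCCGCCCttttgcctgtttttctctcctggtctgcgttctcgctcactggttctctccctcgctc
Ybx1: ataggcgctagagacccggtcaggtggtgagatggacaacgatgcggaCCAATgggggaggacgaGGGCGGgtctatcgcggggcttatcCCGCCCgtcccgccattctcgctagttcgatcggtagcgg
Ybx3: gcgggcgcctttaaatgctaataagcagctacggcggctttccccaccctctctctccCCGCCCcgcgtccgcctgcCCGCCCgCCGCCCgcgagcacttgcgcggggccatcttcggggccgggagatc
A TATA box lay in the window of Eef1a1, after its annotated start, and in none of the other 3, and 7.21% of 32851 such windows in the table held one. The CCAAT box, found in 21.7% of all windows, was present in that of Ybx1 alone among these 4. A GC box stood in all 4, in 6 of the 9 windows of the genes described and in 27.5% of all windows. The 4 windows printed held 61.5% to 71.5% G and C, where the median of all windows was 54.6%. RefSeq had windows for 7 of the 9 genes, of which that of Eef2 and 1 of 3 for Eef2k held an E box, as did 3.98% of all windows. The Eef2 window also held a TATA box, 15 bases before its annotated start, so 2 of the 9 windows of these genes held one. Matches describe these letters only.

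Across the 8 measured genes, 1 was called higher at 8 weeks (Eef1a2) and 4 lower (Ybx1, Ybx3, Eef1b2 and Eef2) at an adjusted p under 0.05. Of all genes tested, 21.9% were called higher and 24% lower. The counts were 1 and 3 without the 4 opposed arrays. Since the members were chosen with the age contrast known, these calls are a description. By probe set, 1 of 10 was called higher and 6 lower, where 22% and 24% of all probe sets were. The arrays of the 2 ages did not overlap for the same 5 genes, as for 35.9% of all genes, nor for 6 of the 10 probe sets, as for 35.4% of all probe sets. The median change of the 8 genes was -0.20 and that of all genes -0.02.

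**Figure D1:**
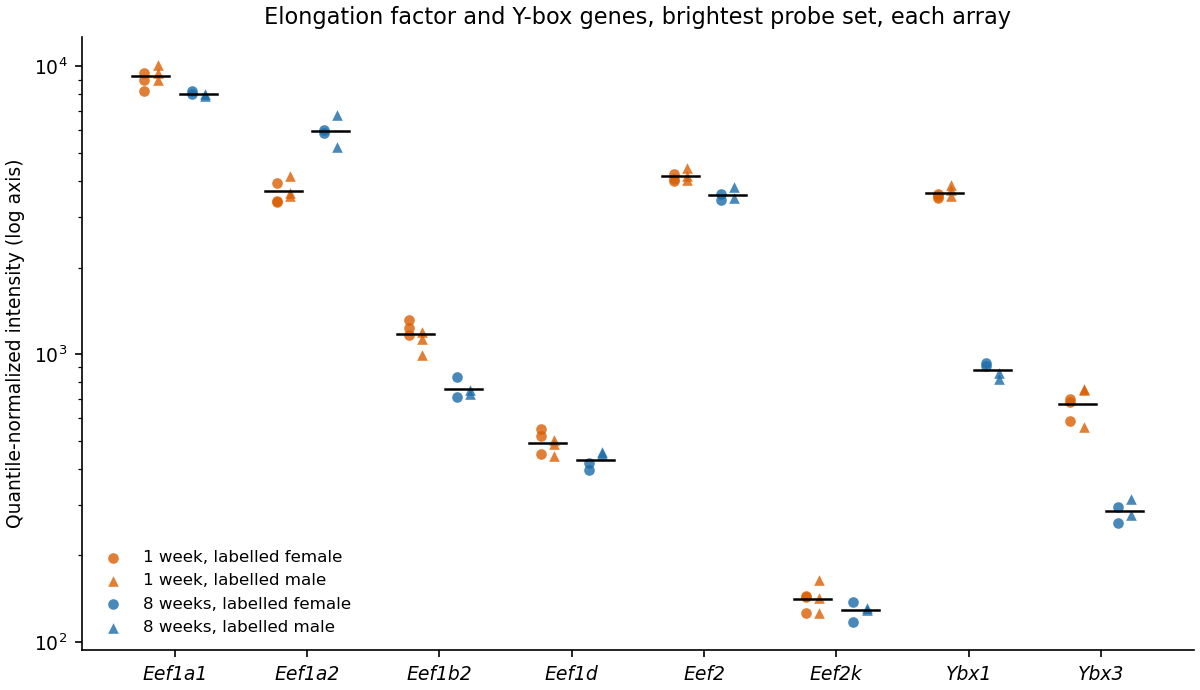
Quantile-normalized intensity (log axis) of the brightest probe set of each of 8 genes, 1 point per array, with age by colour, the sex label by symbol and bars at the mean of each age. The points of the 2 ages separate for Eef1a2, Eef1b2, Eef2, Ybx1 and Ybx3, and Ybx1 moves from a mean of 3625 to 879.

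Of the eEF1A pair, Eef1a2 was called higher at 8 weeks and Eef1a1 was not called. Eef1a1, the form made in most cells, ranked from 1 to 7 by intensity among the 22626 probe sets of each array. Its readings at 1 week were 8984, 9525 and 8241 on female-labelled arrays and 8984, 10150.3 and 9525 on male-labelled ones. At 8 weeks it gave 8241 and 8002 in those labelled female and 8002 and 7882 in those labelled male. Equal values recur because the normalized intensity is set by the rank of a probe set on its array, which ran from 1 to 5 at 1 week and from 5 to 7 at 8 weeks. The ages met at 8241, the change was -0.20 ± 0.07, and Eef1a1 was not called (limma adjusted p = 0.0503, 0.00103 to 0.872 over its alternatives). It was called lower under 9 of 25 alternatives. Among them were those without replicate 3 labelled female at 1 week (-0.23 ± 0.08) or replicate 1 labelled male at 1 week (-0.22 ± 0.08). Others were median scaling, a doubled addend before log2 and a filter at percentile 60.

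The size and the call of the Eef1a1 change depended on how the arrays were scaled. With each array scaled to its median, which does not tie a bright probe set to its rank, Eef1a1 went from 10087 ± 683 to 7154 ± 866. That change of -0.50 ± 0.09 was called lower (limma adjusted p = 0.00103). With scaling to the spike-in controls the change was -0.29 ± 0.13, and on the deposited values, where all probe sets moved by a median of 0.47, it was 0.03 ± 0.14. Without the 4 opposed arrays and with age alone in the model it was -0.10 ± 0.10.

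Eef1a2, the form of mature neurons and muscle, read 3929, 3419 and 3391 at 1 week in the arrays labelled female and 3538, 4176 and 3627 in those labelled male. At 8 weeks it read 5867 and 6020.2 in the arrays labelled female and 5264 and 6796 in those labelled male. Every 8-week array lay above every 1-week array, and the spread was widest between the arrays labelled male at 8 weeks. The change was 0.70 ± 0.10, a 1.62-fold rise that 6.74% of all genes exceeded. It was called under each of 25 alternatives, with changes from 0.54 under median scaling to 1.07 on the deposited values, and was 0.76 ± 0.12 without the 4 opposed arrays.

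In the difference of log2 Eef1a2 and log2 Eef1a1 within an array, a constant factor on that array nearly cancels, but quantile normalization does not. Its level depends on how well each probe set binds its target and does not give the ratio of the transcripts, but its shift between ages shows unequal change. At 1 week the difference read -1.19, -1.47 and -1.28 in the arrays labelled female and -1.34, -1.28 and -1.39 in those labelled male. At 8 weeks it read -0.49 and -0.41 in the arrays labelled female and -0.60 and -0.21 in those labelled male. No array of one age entered the range of the other. The difference moved from -1.32 ± 0.10 (SD, n = 6) to -0.43 ± 0.16 (SD, n = 4), a shift of 0.89 ± 0.09 towards Eef1a2. It was 1.04 ± 0.09 under median scaling, spike-in scaling and no scaling, which multiply an array by 1 constant and so give nearly the same value by construction. The Eef1a1 probe set reached 10150.3, the highest value of the normalized scale, and whether its probes were near saturation was not tested, so the shift is not given as a ratio of transcripts. The shift was 0.86 ± 0.12 without the 4 opposed arrays. It ran from 0.79, without replicate 2 labelled male at 8 weeks, to 0.99, without replicate 1 labelled male at 8 weeks.

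**Figure D2:**
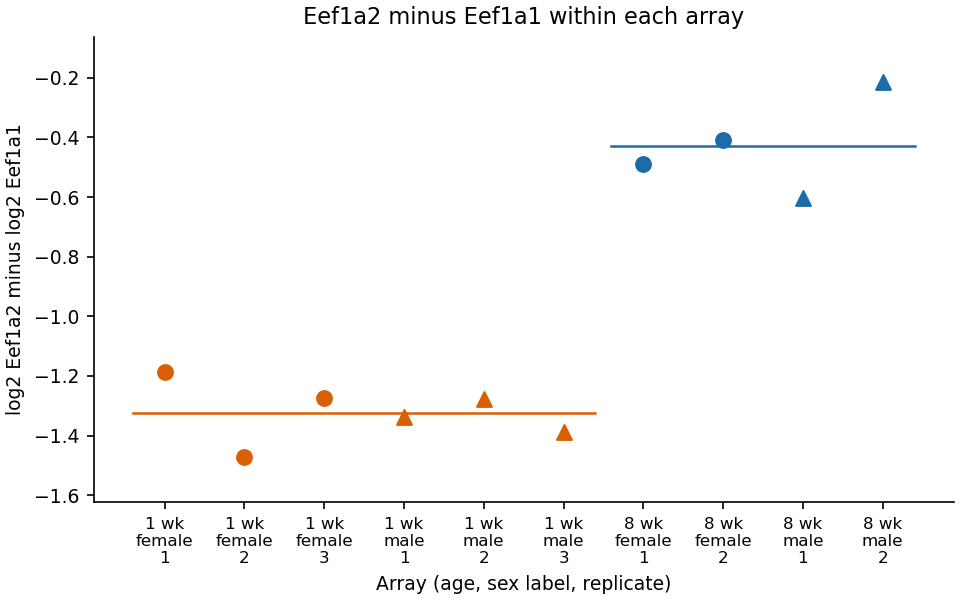
Log2 intensity of Eef1a2 minus that of Eef1a1 on each of 10 arrays, by age, sex label and replicate, with circles for arrays labelled female, triangles for those labelled male and lines at the mean of each age. The 6 arrays of 1 week lie between -1.47 and -1.19 and the 4 of 8 weeks between -0.60 and -0.21.

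Markers of mature neurons and muscle were read beside Eef1a2. The summed intensity of 8 neuronal markers ran from 13871 to 15579 at 1 week and from 16313 to 17101 at 8 weeks, with 4 markers called higher and 1 lower. Among them Snap25, a vesicle fusion protein gene, changed by 1.00 ± 0.09 and Eno2, the neuronal enolase gene, by 1.15 ± 0.07, while Stmn2, a growth-associated microtubule regulator gene, went the other way, from 5820.0 ± 300.4 to 2819 ± 299 (-1.04 ± 0.08). Map2, a dendritic microtubule protein gene (0.23 ± 0.15), Nefl, a neurofilament gene (0.11 ± 0.12), and Rbfox3, a neuronal splicing factor gene (0.33 ± 0.14), were not called. The sum of 7 skeletal muscle markers ran from 239 to 633 at 1 week and from 191 to 264 at 8 weeks, with 0 of the 2 measured after the filter called, and Myh4, a fast myosin gene, read at most 11.2. Oligodendrocyte markers, with 5 on the array, summed to 2103 to 9990 at 1 week and 11643 to 15536 at 8 weeks, and 5 pituitary markers to 317 to 2441 and 1043 to 13386. Cerebellar granule cell markers summed to 958 to 3655 and 1874 to 7603. At 8 weeks replicates 1 and 2 labelled male had the lowest and highest granule sums, as they had the lowest and highest Eef1a2. The arrays labelled female (5257 and 4825) were in the opposite order to Eef1a2. At 1 week the highest sum was in replicate 3 labelled female, where Eef1a2 read lowest. The part of these cell types in the Eef1a2 rise was not tested. In tissue RNA, more cells of a type and more RNA per cell cannot be told apart.

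The genes whose array profile lay nearest to that of Eef1a2, by the root-mean-square difference of centred log2 values over 10 arrays, were Stard10 (0.07), Elmo2 (0.08), Pfkm (0.08), Atp2b2 (0.09) and Pcmtd1 (0.09). Pfkm, the muscle-type phosphofructokinase gene, went from 1448 ± 89.5 to 2512 ± 201. Atp2b2, a plasma membrane calcium pump gene, went from 1047 ± 45.8 to 1719 ± 241. For Eef1a1 the nearest profiles were those of Slc44a2 (0.03), Trappc4 (0.05), Ptdss1 (0.06), Eif4g3 (0.06) and Lcmt1 (0.07), with changes from -0.26 to -0.17. These likenesses describe 10 arrays of 2 ages, and genes with a like change between the ages come out near by this measure.

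Among the subunits that exchange GDP for GTP on eEF1A, Eef1b2 was called lower and Eef1d was not. Eef1b2, the catalytic beta subunit, read 1236, 1310 and 1169 at 1 week in the arrays labelled female and 1129, 993 and 1198 in those labelled male. By 8 weeks Eef1b2 was at 832 and 712 in the arrays labelled female and 753 and 726 in those labelled male. All 8-week arrays lay below all 1-week arrays, with a change of -0.62 ± 0.08, steeper than in all but 8.09% of genes. On the deposited values, against a median of 0.47 for all probe sets, its change was -0.07 ± 0.14 and the call was lost, and under spike-in scaling it was -0.38 ± 0.13 and called. It was also called, at -0.58 ± 0.11, without the 4 opposed arrays.

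Eef1d, the delta subunit, read 449, 548 and 521 at 1 week in the arrays labelled female and 487, 502 and 444 in those labelled male. At 8 weeks the same probe set read 396, 419, 449.6 and 456, so the ages overlapped and the change was -0.18 ± 0.08 (limma adjusted p = 0.0857). It was called without replicate 1 labelled female at 1 week (-0.22 ± 0.07, limma adjusted p = 0.0354). Its alternatives gave 0.0315 to 0.807. On the deposited values its sign turned and it was called higher, at 0.34 ± 0.14, below the median of 0.47. Without the 4 opposed arrays the change was -0.22 ± 0.11 and not called. A dimmer probe set of Eef1d went from 199 ± 44.1 to 148 ± 15.4 and was called lower, at -0.36 ± 0.13, with overlapping ages. The remaining one had means of 68.0 and 57.5 and did not pass the filter.

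Eef2, the translocating factor, read 3996, 4069 and 4233 at 1 week in the arrays labelled female and 4429, 4022 and 4148 in those labelled male. By 8 weeks Eef2 was at 3428 and 3594 in the arrays labelled female and 3495 and 3808 in those labelled male. All 8-week arrays lay below all 1-week arrays, but by a small step, and the change was -0.21 ± 0.07 (limma adjusted p = 0.0302, 0.00582 to 0.494 over its alternatives). The call was lost without any 1 of 6 arrays: replicates 2 and 3 labelled female (-0.21 and -0.20) or replicate 1 labelled male (-0.19) at 1 week, and replicates 1 and 2 labelled female (-0.20 and -0.23) or replicate 1 labelled male (-0.18) at 8 weeks. It was also lost without the 4 opposed arrays (-0.26 ± 0.10) and under spike-in scaling (-0.12 ± 0.13), and on the deposited values the sign turned (0.19 ± 0.13).

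Eef2k, the calcium and calmodulin dependent kinase that phosphorylates and slows eEF2, read from 126 to 164 at 1 week, with a median of 143, and from 117 to 138 at 8 weeks. Its probe set stood between percentiles 51.4 and 60.2 of the probe sets on an array. The ages overlapped and the change was -0.11 ± 0.09 (limma adjusted p = 0.335). On the deposited values it was 0.35 ± 0.13 and called, below the median of 0.47, under spike-in scaling it was 0.08 ± 0.13, and without the 4 opposed arrays it was -0.14 ± 0.13 and not called.

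**Figure D3:**
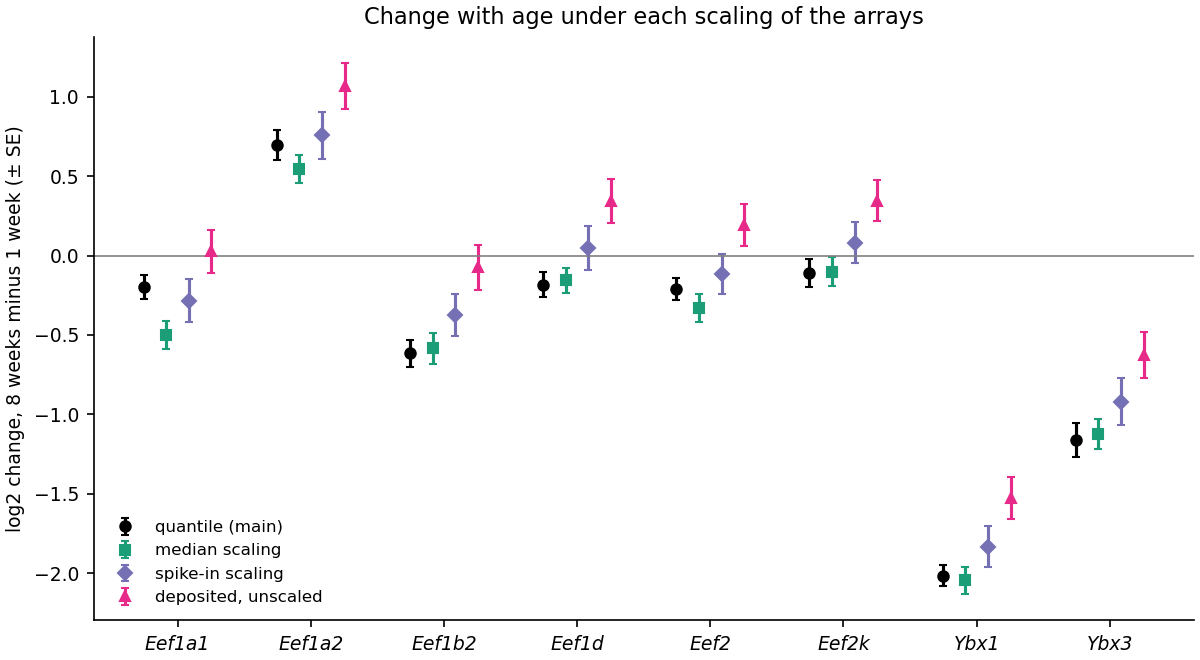
Log2 change at 8 weeks minus 1 week (± SE) of 8 genes under quantile normalization, median scaling, spike-in scaling and no scaling. Eef1a2 lies above 0, and Ybx1 and Ybx3 below 0, under all 4, while Eef1a1, Eef1d, Eef2 and Eef2k lie on both sides of 0 depending on the scaling.

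Ybx1, the gene of the major cytoplasmic messenger RNA packaging protein YB-1, had the largest change of the 8 genes. It read 3599, 3538 and 3487 at 1 week in the arrays labelled female and 3861, 3548 and 3718 in those labelled male. At 8 weeks it read 908 and 932 in the arrays labelled female and 817 and 858 in those labelled male. The lowest 1-week array was more than 3 times the highest 8-week array, and within an age the arrays stayed close, with an SD of 140 at 1 week and 51.2 at 8 weeks. The change was -2.02 ± 0.07, a 4.04-fold fall, and 23 of 8148 genes changed further downward. Of 74 genes whose probe set read at least as bright at 1 week, 3 changed further downward. By rank among the probe sets of an array, Ybx1 stood at 114 to 150 at 1 week and at 1567 to 1856 at 8 weeks.

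The Ybx1 fall was called under each of 25 alternatives. Its change was -2.04 ± 0.08 under median scaling, -1.83 ± 0.13 under spike-in scaling and -1.53 ± 0.13 on the deposited values, on which it read 2442 to 3665 at 1 week and 908 to 1209 at 8 weeks. Without the 4 opposed arrays it was -2.01 ± 0.11, and leaving out single arrays gave -2.05 to -1.995. A second Ybx1 probe set was dim, at 24.2 to 86.3 at 1 week and 12.7 to 31.6 at 8 weeks. It did not pass the filter, its ages overlapped, and its mean was lower at 8 weeks (18.5 ± 8.85 against 59.1 ± 24.3).

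Ybx3, a relative of Ybx1 with the same kind of cold shock domain, read 587, 700.1 and 681 at 1 week in the arrays labelled female and 749.7, 757 and 558 in those labelled male. By 8 weeks Ybx3 was at 259 and 294 in the arrays labelled female and 275 and 315 in those labelled male. The ages did not overlap and the change was -1.16 ± 0.11, a 2.24-fold fall that 1.84% of genes exceeded. A second Ybx3 probe set went from 288 ± 64.2 to 94.8 ± 58.1, a change of -1.57 ± 0.26, with 14.3 in replicate 1 labelled female and 102 to 153 in the other 3 arrays at 8 weeks. The brighter probe set was called lower under each of 25 alternatives, from -1.36 to -0.63, and was -1.26 ± 0.12 without the 4 opposed arrays. Within arrays, log2 Ybx1 minus log2 Ybx3 moved from 2.40 ± 0.19 (SD, n = 6) to 1.54 ± 0.14 (SD, n = 4), so the fall of Ybx1 was the larger by 0.85 ± 0.11.

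**Figure D4:**
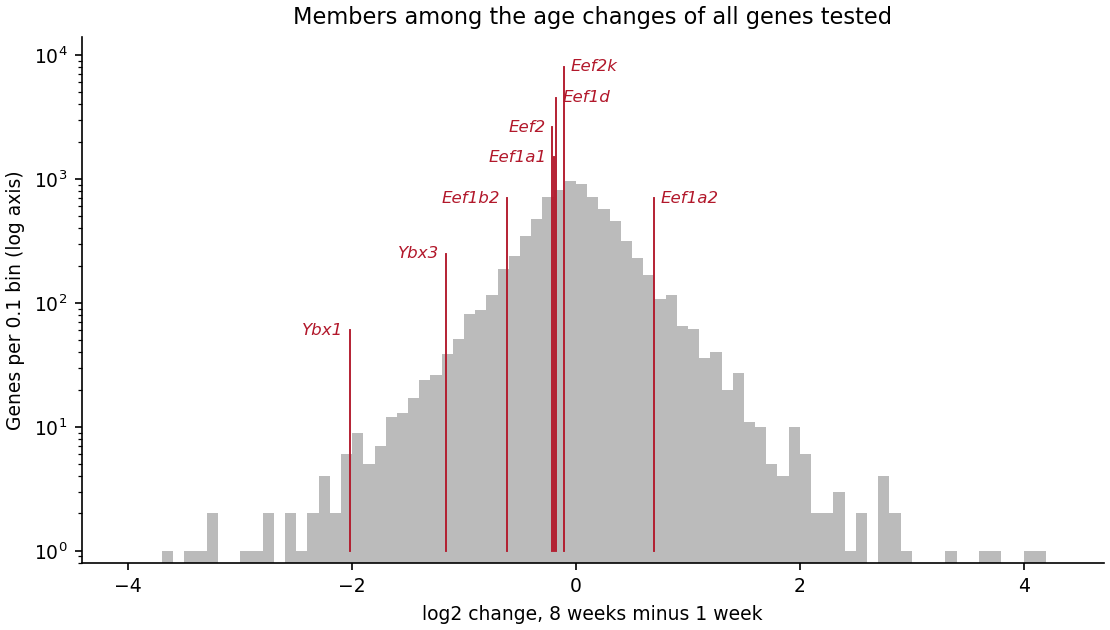
Number of genes (log axis) by log2 change at 8 weeks minus 1 week, in bins of 0.1, with red lines at the 8 genes described. The height of a line carries no value. Ybx1 at -2.02 and Ybx3 at -1.16 stand in the lower tail, Eef1a2 at 0.70 in the upper part, and Eef1a1, Eef1d, Eef2 and Eef2k near the centre.

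Markers of immature neurons and of dividing cells were read beside the Y-box genes. The summed intensity of 6 immature neuron markers ran from 14382 to 17650 at 1 week and from 4605 to 5632 at 8 weeks, and all 6 were called lower. That of 5 dividing cell markers ran from 807 to 1470 at 1 week and from 174 to 227 at 8 weeks, and all 4 measured after the filter were called lower. Dcx, a microtubule protein gene of migrating neurons, changed by -3.37 ± 0.18 and Top2a, the topoisomerase gene of dividing cells, by -2.20 ± 0.18. Fibroblast and meningeal markers summed to 1731 to 9098 at 1 week, highest in replicate 3 labelled female, and to 697 to 958 at 8 weeks. The part of these cell types in the Ybx1 and Ybx3 falls was not tested.

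The genes nearest to Ybx1 in profile over 10 arrays, by the same measure, were Gap43 (0.11), Pafah1b3 (0.12), Col4a1 (0.13), Crmp1 (0.13) and Ppp1r14b (0.14). Their changes ran from -2.08 to -1.86, beside -2.02 for Ybx1. Genes with a like fall between the 2 ages come out near by this measure. Gap43, a growth cone protein gene, went from 3225 ± 299 to 846 ± 92.1, and Crmp1, a collapsin response mediator gene, from 3116 ± 256 to 832 ± 84.5. Pafah1b3, a catalytic subunit of platelet-activating factor acetylhydrolase, went from 473 ± 41.7 to 112 ± 7.50, and Col4a1, a basement membrane collagen gene, from 927 ± 60.9 to 222 ± 25.9.

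Other genes of the elongation pathway were taken from lists of names. Of 11 measured factors of elongation, termination and ribosome rescue, 4 were called lower and 0 higher (36.4% and 0%, beside 24% and 21.9% of all genes). Their median change was -0.22 against -0.02 for all genes. The 4 were Etf1, a release factor gene (-0.43 ± 0.07), its GTPase partner Gspt1 (-0.38 ± 0.09), Abce1, a ribosome recycling factor gene (-0.35 ± 0.08), and Eif5a, which eases peptide bond formation (-0.22 ± 0.07). Without the 4 opposed arrays 2 were called lower and 1 higher. On the deposited values 0 of this list were called lower and 5 higher, and under spike-in scaling 0 and 0. Of 4 mitochondrial factors, 1 was called lower and 1 higher (25% each, close to the 24% and 21.9% of all genes). Tufm, the mitochondrial counterpart of eEF1A, was the lower one (-0.29 ± 0.08) and Gfm1, a mitochondrial translocase gene, the higher (0.48 ± 0.11). Of these 4, 1 was called lower and 0 higher without the 4 opposed arrays, on the deposited values 0 and 3, and under spike-in scaling 0 and 1.

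Among 7 measured genes of enzymes that modify elongation factors, 1 was called lower and 0 higher (14.3% and 0%, beside 24% and 21.9% of all genes). The lower one was Dhps, which starts the hypusine modification of eIF5A (-0.25 ± 0.08). The lower count was 0 under median scaling, under spike-in scaling, on the deposited values, where 5 were called higher, and without the 4 opposed arrays. The 4 measured diphthamide genes, which act on eEF2, were not called (Dph2, Dph5, Dph6 and Dph7, from -0.24 to 0.07). Of 13 measured regulators of eEF2 kinase or eEF2, 3 were called lower and 1 higher (23.1% and 7.69%, beside 24% and 21.9% of all genes), with a median of 0.01, so the share lower was close to that of all genes. Prkag2, a subunit of AMP-activated kinase, changed by -0.52 ± 0.08, the kinase gene Akt1 by -0.39 ± 0.09 and Ppp2cb, a phosphatase subunit gene, by -0.21 ± 0.07. Rheb, the small GTPase that activates mTOR, was the higher one (0.25 ± 0.07), and Mtor itself changed by 0.06 ± 0.08 and was not called. The higher call was lost without replicate 1 labelled female, replicate 1 labelled male or replicate 2 labelled male at 8 weeks, and the Dhps call without replicate 2 labelled female, replicate 2 or 3 labelled male at 1 week, or replicate 2 of either label at 8 weeks. Without the 4 opposed arrays 1 regulator was called lower and 0 higher. On the deposited values 11 regulators were called higher and 0 lower, and under spike-in scaling 1 and 0.

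Of 2 measured genes of other cold shock domain proteins, Csdc2 was called lower (-0.53 ± 0.09) and Carhsp1 was not (-0.25 ± 0.10, limma adjusted p = 0.0572). Without replicate 3 labelled male at 1 week or replicate 1 labelled male at 8 weeks, 2 genes of this list were counted as lower, and the count does not say which. The Csdc2 call was lost on the deposited values and under spike-in scaling, where 0 genes of the list were called, and without the 4 opposed arrays 1 gene of the list was called lower. Ybx2, the germ cell Y-box gene, read 39.5 to 115 and did not pass the filter. Of 16 measured proteins of messenger ribonucleoprotein particles, 7 were called lower and 2 higher (43.8% and 12.5%, beside 24% and 21.9% of all genes). Their median change was -0.25. Pabpc1, the cytoplasmic poly(A) binding protein gene, went from 2920 ± 121 to 1379 ± 65.3 and Syncrip changed by -0.73 ± 0.07, while Pura, a neuronal nucleic acid binding protein gene, rose by 0.62 ± 0.09 and G3bp2 by 0.30 ± 0.09. The count of higher genes was 1 without replicate 1 of either label at 8 weeks, and without the 4 opposed arrays 4 were called lower and 1 higher. On the deposited values 1 was called lower and 7 higher, and under spike-in scaling 2 and 4.

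Of 41 measured cytosolic ribosomal protein genes 25 were called lower and 1 higher (61.0% and 2.44%), with a median of -0.28. Of 35 genes with initiation factor symbols 16 and 1 were (45.7% and 2.86%), beside 24% and 21.9% of all genes. Rplp0, a stalk protein gene to which elongation factors bind, went from 3328 ± 123 to 1534 ± 55.4, Rpsa from 4301 ± 216 to 2230 ± 195 and Eif4a1, an initiation helicase gene, changed by -0.80 ± 0.08. Its paralogue Eif4a2 was the initiation gene called higher (0.46 ± 0.07), as was Rpl27a among the ribosomal ones (0.52 ± 0.12). The Rpl27a probe set was dim, at 69.7 ± 23.6 at 1 week and 108 ± 13.7 at 8 weeks. The dimmest probe set kept had a mean of 74.5. With the filter raised to percentile 60, 0 ribosomal genes were called higher. Of 20 measured genes of cytosolic aminoacyl-tRNA synthetases and their complex, 9 were called lower and 2 higher (45% and 10%). Among them were Aimp2 (-0.61 ± 0.10), Eef1e1 (-0.56 ± 0.09) and, higher, Aimp1 (0.29 ± 0.10). These counts moved with scaling: on the deposited values 4 ribosomal genes were called lower and 9 higher, 1 and 17 of the initiation genes, and 0 and 10 of the synthetase genes. Under spike-in scaling the counts were 13 and 1, 5 and 3, and 1 and 2. They were 20 and 1, 9 and 1, and 3 and 0 without the 4 opposed arrays. Of the 2 synthetase list genes called higher, 0 were left without replicate 1 labelled female at 8 weeks, and 1 without replicate 3 labelled female or replicate 2 labelled male at 1 week, or without any other single array at 8 weeks.

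**Figure D5:**
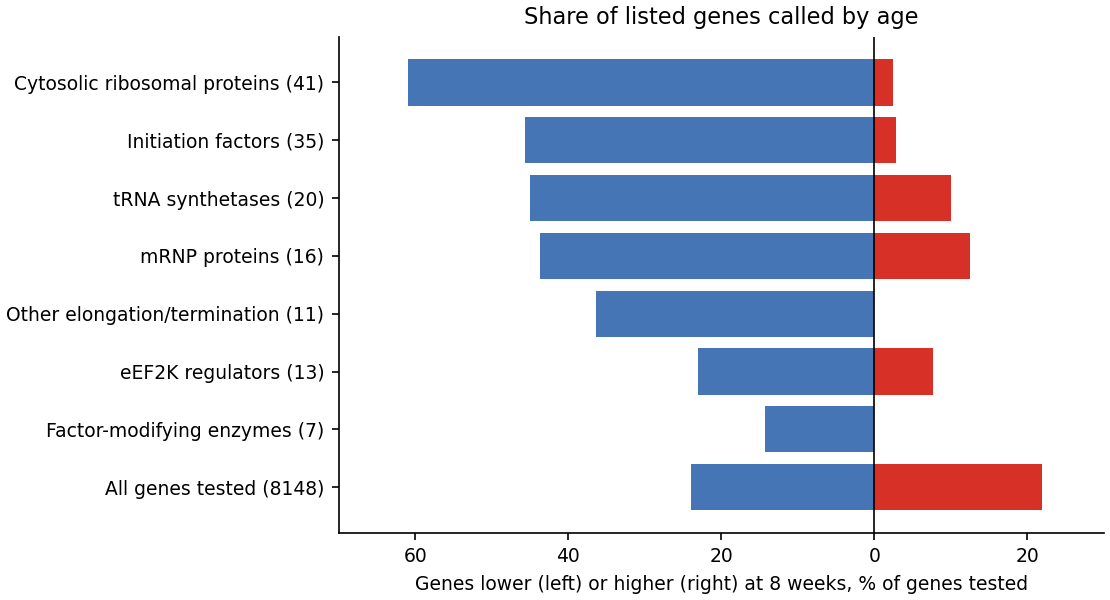
Share of measured genes of the lists named on the axis called lower (blue, left of 0) or higher (red, right of 0) at 8 weeks, in percent, on the quantile-normalized scale, with the number of measured genes in brackets and all 8148 genes in the bottom bar. The mitochondrial and cold shock domain lists are not shown. Ribosomal protein genes were called lower in 61.0% of cases, and all genes in 24.0%.

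The sex labels were compared as a measure the choice of genes did not use. At 8 weeks, where sex transcripts followed the labels, 0 of the 8 genes passed for male minus female, and 0 of 13576 probe sets did in limma (0%), with 345 at an unadjusted p under 0.05. The largest differences among the brightest probe sets were 0.14 ± 0.12 for Eef1d and -0.13 ± 0.10 for Ybx1, with 0 of 8 genes at an unadjusted p under 0.05. For the age by sex label interaction, which tests whether the age change differs between labels, 0 of 8 genes and 0 of 13576 probe sets passed in limma (0%), with 759 probe sets at an unadjusted p under 0.05. Its lowest adjusted p among the brightest probe sets of the 8 genes was 0.863, for Ybx1 (-0.20 ± 0.13). The dimmer Ybx3 probe set, with its low reading of 14.3, had a limma unadjusted p of 0.0180 for the label at 8 weeks (1.15 ± 0.41). For the interaction (1.69 ± 0.53) its limma unadjusted p was 0.00910 and its adjusted p 0.857. Xist was not called at 8 weeks either, though it read 1676 and 1405 in the arrays labelled female and 131 and 134 in those labelled male. The fit takes its spread from all groups, the 1-week ones with opposed labels included, so 0 calls among the members carry little information. With 2 arrays per label at 8 weeks and opposed labels at 1 week, these values do not show that the sexes are alike.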

How the data were processed

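The authors deposited 1 intensity per probe set and array on a linear scale, per the file headers and values. The software that summarised the probes is not given in the sources used here. Of 22690 probe sets 64 array controls were set aside. Arrays were quantile-normalized because their trimmed means lay between 138 and 318. Before log2, 24 was added to each value (percentile 20 of the deposited table). Only the 13576 probe sets with a mean log2 at or above percentile 40 were tested. The platform annotation gave 20380 probe sets 1 symbol, 691 several and 1555 none. The brightest single-symbol probe set stood for a gene.

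limma 3.58.1 (lmFit, eBayes) in R 4.3.3 was fitted with 1 coefficient per group of age and label over all probe sets, two-sided, with Benjamini-Hochberg adjustment at 0.05. The age contrast averaged both labels. The pipeline was tested on simulated data. Array number limits the precision. Named genes were every member, up to 4 called genes per list in the main direction and 2 in the other, the 5 nearest profiles of Eef1a1, Eef1a2 and Ybx1, and the markers beside a result. Mtor, Carhsp1, Ybx2 and the diphthamide genes were named outside that rule. Members, lists and alternatives were chosen with earlier results of these data known.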

Additional observations from a re-analysis of the deposited data

How the results depend on the processing

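Of the 8 genes, Eef1a2, Ybx1 and Ybx3 kept their direction and call under all 25 alternatives run, and Eef1b2 under 24. Directions are relative to the scaling. On deposited values 8673 probe sets were called higher and 629 lower at 8 weeks, with 3 of the 8 genes higher and 2 lower and Eef2 at 0.19, and under spike-in scaling 1220 were lower, with a median change of 0.19 over all probe sets. Without the 4 opposed arrays 1973 were lower, without all 5 unmatched arrays, with 1 array of 1 week left and assumed to vary like the others, 1975 were higher and 1747 lower, and with a 2-fold minimum 450 and 393. Leaving out single arrays gave 2480 to 2936 higher, 2729 to 3126 lower, 1 to 1 and 3 to 5 of the 8 genes, -2.05 to -1.995 for Ybx1 and 0.79 to 0.99 for the Eef1a2 minus Eef1a1 shift, which was 1.04 on deposited values and under median and spike-in scaling. For the sex label at 8 weeks 1 probe set passed on deposited values, 1 under spike-in scaling, 2 with the 8-week arrays alone and 0 to 2 with single arrays left out. For the interaction the counts were 1, 1 and 0 to 2. The cause was not tested.

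With the replicate number as a block 2847 probe sets were higher and 3054 lower, the Ybx1 change was -2.02 and the call of Eef2 was lost (limma adjusted p = 0.0832). The numbers are not known to pair the samples: deviations of same-numbered arrays correlated over 0.1 in 5 of 13 pairs. Eef1a1 was called lower under 9 of 25 alternatives, and Eef2 under 14.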
